A study of Gallus gallus with 16 samples.

Results

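The lowest dose of metformin in this series, 0.5 mM, was compared with no metformin (0 mM) in 4 primary COVCAR lines, named C5, C7, C9 and C11. These 8 libraries, of 16 in all, were chosen by their labels, and each 0.5 mM library was set against the 0 mM library of its own line. COVCAR lines are chicken ovarian cancer cells grown from ascites, the fluid that collects in the body cavity, of hens in which ovarian tumors had arisen without any induced mutation, and the labels give the tumor type as ovarian endometrioid adenocarcinoma. Cells were first grown to confluence on gelatin and dissociated with trypsin. Both groups were then kept for 24 h in serum-free medium with insulin, epidermal growth factor and antibiotics. The plates were of the ultra-low attachment kind, in which cells float and form spheres. By the labels and methods the 2 groups differed only in metformin. The cells were at passage 3 for C5, C7 and C9 and at passage 2 for C11. The other 8 libraries came from the same lines at 1 and 2 mM. There was 1 library per line and dose, so that the replicate is the line (n = 4), and each line is the culture of a single hen.

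Metformin is a biguanide used against diabetes. It enters cells through organic cation transporters and is known to inhibit complex I of the mitochondrial respiratory chain, which lowers cellular energy charge and activates the kinase AMPK. AMPK in turn restrains growth, lipid synthesis and mTOR signaling, and stress of the mitochondria is known to raise the integrated stress response, in which the factor ATF4 induces genes of amino acid synthesis and transport. The question for this dose was which genes differed from the control in the same direction in all 4 lines, and which of them no longer did so once the length of their exons was taken into account.

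Libraries held 35403643 to 38257947 counts at 0.5 mM and 37647733 to 39836592 counts at 0 mM, and 13318 of 23910 genes passed the filter on low counts. Levels are given as CPM, the counts of a gene scaled to the TMM-adjusted total of its library, and differences as log2 ratios of 0.5 mM over 0 mM within a line. In markers the cultures were rich in fibroblast genes, with summed levels of 9720 to 65200 CPM at 0.5 mM and 19700 to 66600 CPM at 0 mM, chiefly from COL1A1, COL1A2 and COL3A1. Of the epithelial and mesothelial markers, KRT7 was plentiful (313 to 787 CPM at 0.5 mM, 206 to 865 CPM at 0 mM) and LRRN4 was present (38 to 58.1 CPM at 0.5 mM, 24.7 to 55.3 CPM at 0 mM), and CLDN1, KRT18, MSLN, CDH1 and WT1 were low, at most 13.7, 10, 8.74, 7.18 and 5.73 CPM in any of these 8 libraries. EPCAM was at most 0.648 CPM, CLDN3 at most 0.233 CPM, ESRP1 at most 0.152 CPM and UPK3B at most 0.0905 CPM. Of the epithelial genes that would mark the labelled tumor type, EPCAM, CLDN3 and ESRP1 were thus at or near 0, while KRT7 was not. CDH1, KRT18, CLDN1 and MSLN were low but present in each of these 8 libraries. Of the 15 epithelial and mesothelial markers listed, 11 were found by symbol, and PAX8, KRT8, KRT19 and CLDN4 were not.

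Before any result, each 0.5 mM library was checked against its own line. For each line, genes were taken whose level in its other 3 libraries lay more than 1 log2 unit beyond all 9 libraries of the other lines at 0, 1 and 2 mM. The C5 library at 0.5 mM lay on its line's side for 17 of 17 such genes that were high in C5 and 21 of 22 that were low, and the C9 library for 24 of 25 and 16 of 16. The C7 library did so for 16 of 25 and 13 of 28. The C11 library did so for 5 of 5 low genes but for 14 of 110 high genes. RDM1, one of the low genes, had 0.934 CPM in C11 at 0.5 mM and 0.601 to 0.947 CPM in the other C11 libraries, against 13.9 to 57.6 CPM in every library of the other lines. IL1B, the inflammatory cytokine interleukin 1 beta, had 5.65 CPM in C11 at 0.5 mM, against 1640 CPM in C11 at 0 mM, and it had 453 CPM and 1680 CPM in C11 at 1 and 2 mM. AVD, which encodes avidin, had 1.64 CPM in C11 at 0.5 mM, against 357 CPM at 0 mM, 227 CPM at 1 mM and 264 CPM at 2 mM. The C11 library at 0.5 mM thus kept the low genes of its line and lacked most of its high genes, which the C11 libraries on both sides of it in dose had. These genes were chosen after their values were seen.

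**Figure D1:**
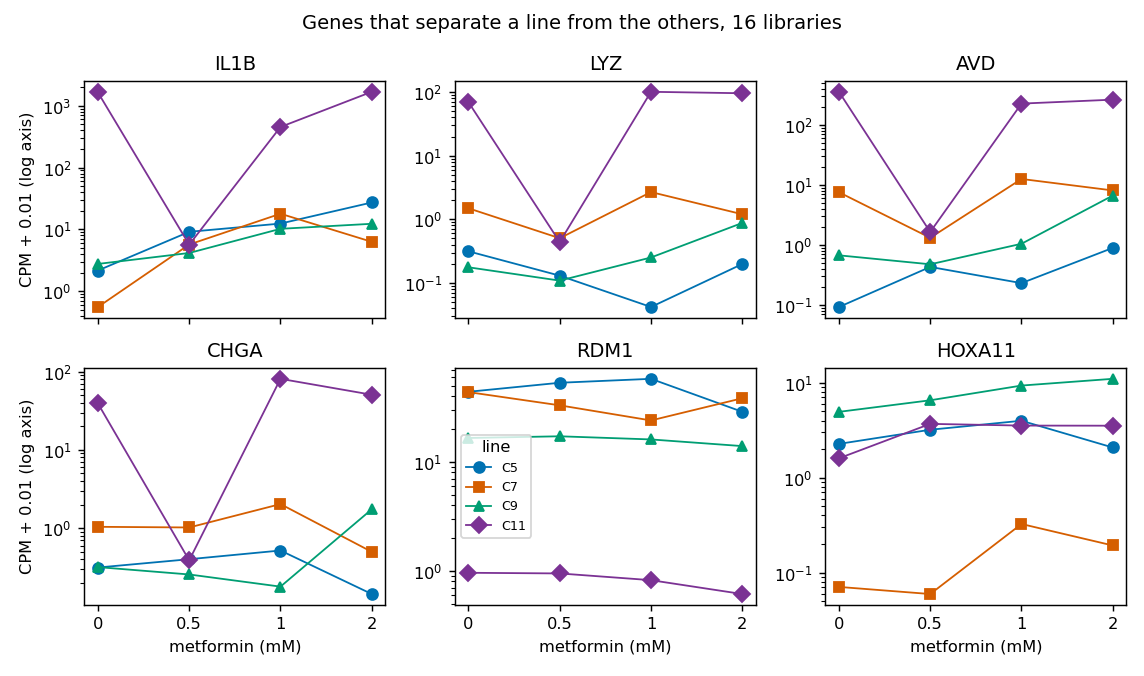
Level of 6 genes (CPM + 0.01, log axis) against metformin (0, 0.5, 1 and 2 mM) in the 16 libraries, 1 point per library, scaled over all 16. IL1B, LYZ, AVD and CHGA were high in C11 at 0, 1 and 2 mM and near the other lines in C11 at 0.5 mM, while RDM1 stayed low in C11 and HOXA11 stayed low in C7 at every dose.

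The lines differed widely in how far the 0.5 mM library lay from its control. The SD of the log2 ratio over the 13318 genes was 0.431 in C9, 0.615 in C5, 1.12 in C11 and 1.36 in C7, and the share of genes beyond 1 log2 unit was 4.02%, 8.61%, 25% and 40.3% in the same order. The C7 library at 0 mM had a count for 14888 genes, the fewest of the 16 libraries, and C7 at 0.5 mM for 16903. Each C7 ratio rests on that control as much as on the treated library. The ratios of one line followed those of another weakly or not at all. Across genes, which are not independent replicates, Pearson's r between the ratios of 2 lines lay between −0.267 (C7 and C9) and 0.272 (C7 and C11). C7 and C9 had the same sign in 35.4% of genes and C7 and C11 in 63.8%.

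In all 4 lines, 709 genes were higher at 0.5 mM than at 0 mM (5.32% of the genes tested) and 781 were lower (5.86%), 1490 in all (11.2%). Of the 16 sign patterns that 4 lines can give, 2 have one direction throughout, which is a larger share than 11.2%. One direction was thus no more frequent than for unrelated lines in which either sign is equally likely. The split was even, with exactly 2 lines higher, in 42.3% of genes. Most of the 1490 genes had a small ratio in at least 1 line. Only 43 higher and 27 lower genes reached 0.5 log2 units in every line, and only 1 higher and 1 lower passed 1 log2 unit in every line. With any 1 line left out, the remaining 3 lines shared a direction for 1359 to 1824 higher and 1247 to 1778 lower genes. With RLE in place of TMM scaling, which shifted all ratios by −0.07 in C7 and by less in the other lines, the split was 640 higher and 880 lower. Genes whose 4 libraries at 0.5 mM all lay above or all below the 4 libraries at 0 mM numbered 44 higher (0.33%) and 88 lower (0.661%).

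The test across all genes called none. edgeR's quasi-likelihood test with the line as a term gave 0 genes at p under 0.01 and adjusted p under 0.05 (0%), 225 at an unadjusted p under 0.05 (1.69%; 143 higher and 82 lower), and a smallest adjusted p of 0.869. In the same test with the length trend of each library taken out, 0 genes were called, 265 had an unadjusted p under 0.05 (1.99%), and the smallest adjusted p was 0.867. Of the 225 genes, 194 had one direction in all 4 lines. The number with an unadjusted p under 0.05 was 97 without C11, 222 without C7, 502 without C5 and 526 without C9, and 0 were called in each case. DESeq2 with the line as a term called 1 gene, CD48, a surface protein of leukocytes (log2 fold change −3.84, SE 0.782, adjusted p = 0.0173), and had 685 at an unadjusted p under 0.05. CD48 had 0, 3, 1 and 21 counts in C5, C7, C9 and C11 at 0.5 mM, against 0, 85, 8 and 270 counts at 0 mM, so that C7 and C11 set its ratio and C5 had none. Direction in all 4 lines is therefore given below as a description, with the values of each line, and no gene is said to have passed a test.

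The gene HSPA2, of the Hsp70 family of chaperones, had the largest ratio in its weakest line of any named higher gene. It had 759, 1590, 673 and 578 CPM in C5, C7, C9 and C11 at 0.5 mM, against 435, 766, 427 and 380 CPM at 0 mM. Every line was higher with metformin, by 0.60 to 1.06 log2 units, while the groups overlapped because the C7 control lay above the C5, C9 and C11 treated libraries (edgeR log2 fold change 0.78, SE 0.216, adjusted p = 0.869). STK35, a serine/threonine kinase, had 11.1, 4.09, 9.51 and 6.24 CPM at 0.5 mM, against 5.72, 2, 6.29 and 3.68 CPM at 0 mM, and its groups overlapped. TRIL, a membrane protein that works with Toll-like receptor 4, had 15, 8.54, 12.8 and 9.27 CPM at 0.5 mM, against 7.16, 5.92, 7.6 and 5.47 CPM at 0 mM. All 4 treated libraries lay above all 4 controls for TRIL, and the lines were close in their ratios, from 0.53 to 1.07.

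FOXK1, a forkhead transcription factor, also had groups that did not overlap. Its levels were 43.4, 38.4, 48 and 40.2 CPM at 0.5 mM, against 29.3, 22.9, 38.4 and 27.3 CPM at 0 mM, and C9 had the smallest ratio (0.32). RBM15, an RNA-binding protein that guides the m6A methyltransferase, had 3.53, 12.1, 9.66 and 6.85 CPM at 0.5 mM, against 2.78, 5.37, 6.67 and 3.97 CPM at 0 mM. Others of this group were UBE2QL1, a ubiquitin-conjugating enzyme (ratios 0.40 to 0.70), SPATS2L (0.34 to 1.27), TMEM97, the sigma-2 receptor (0.34 to 0.54), and SLC25A29, a mitochondrial carrier of basic amino acids (0.33 to 0.90). C7 had the highest ratio for HSPA2, STK35, SPATS2L, RBM15, SLC25A29 and FOXK1. CHD2, a chromatin remodeler, and SASS6, which forms the cartwheel of new centrioles, were among the 3 higher genes with the smallest p. CHD2 had 358, 158, 295 and 178 CPM at 0.5 mM, against 167, 88, 192 and 119 CPM at 0 mM, and SASS6 had 40.2, 30.8, 63.6 and 59.2 CPM, against 23.9, 7.07, 55.1 and 15.9 CPM (edgeR adjusted p = 0.869 for each). CHD2 has 8976 bases of exons, and its ratio in C7 was 0.84 before and 0.22 after the length adjustment.

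**Figure D2:**
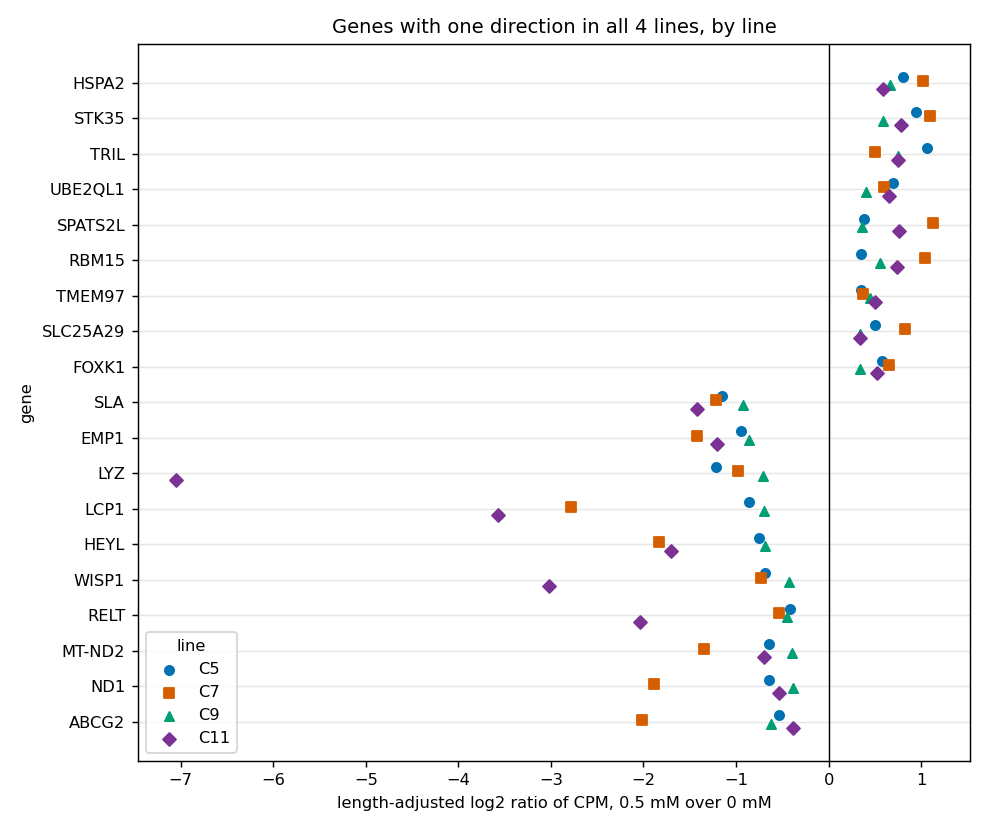
Length-adjusted log2 ratio of CPM (0.5 mM over 0 mM, horizontal axis) of 9 of the 10 higher and all 10 lower genes with the largest ratio in their weakest line, 1 point per line. All points of a gene lie on one side of 0 by the choice of the genes, and C11 stands far to the left of the other lines for LYZ (−7.05), WISP1 (−3.02) and RELT (−2.04).

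EMP1, a membrane protein of the PMP22 family, had the lowest unadjusted p of all genes in edgeR's test, 0.00113 (log2 fold change −1.10, SE 0.196, adjusted p = 0.869). It had 152, 148, 92.4 and 127 CPM in C5, C7, C9 and C11 at 0.5 mM, against 292, 393, 169 and 293 CPM at 0 mM. Every treated library lay below every control. SLA, an adaptor of the Src family that acts in lymphocyte receptor signaling, had 9.6, 17.4, 1.95 and 3.79 CPM at 0.5 mM, against 21.5, 36.7, 3.76 and 9.83 CPM at 0 mM. Its ratios were close in all lines, from −1.37 to −0.94, although the lines differed so much in level that the groups overlapped. HEYL, a transcriptional repressor induced by Notch, had 0.362, 8.25, 20.3 and 8.56 CPM at 0.5 mM, against 0.633, 28.1, 32.9 and 27.4 CPM at 0 mM, and was almost absent from C5.

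In several lower genes 1 or 2 lines differed far more than the others. LCP1, the actin-bundling protein L-plastin of leukocytes, had 0.513, 1.05, 0.493 and 3.59 CPM at 0.5 mM, against 0.963, 6.37, 0.834 and 40.7 CPM at 0 mM. LYZ, lysozyme, had 0.121, 0.49, 0.0986 and 0.43 CPM at 0.5 mM, against 0.303, 1.49, 0.167 and 70.3 CPM at 0 mM, with a lowest count of 4. Both were highest in the C11 control, and 421 of the 584 exonic bases of LYZ and 58 bases of LCP1 are shared with another gene whose reads are counted for both. WISP1, a secreted protein of the matrix, had a ratio of −3.08 in C11 and of −0.89 to −0.40 in the other lines. RELT, a receptor of the TNF family, had 5.79, 7.3, 6.38 and 5.15 CPM at 0.5 mM, against 7.68, 11.3, 8.62 and 21.7 CPM at 0 mM, and its groups did not overlap. ABCG2, a drug efflux pump, had 3.41, 3.79, 3.79 and 3.61 CPM at 0.5 mM, against 5.01, 13.9, 5.96 and 4.54 CPM at 0 mM, also without overlap, and here the C7 control was the highest.

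Markers of macrophages and of muscle were lower in sum in C11 at 0.5 mM along with these genes. The summed level of macrophage markers was 180, 256, 99.6 and 297 CPM in C5, C7, C9 and C11 at 0.5 mM, against 167, 302, 90.2 and 2260 CPM at 0 mM, and none of the 14 markers was at 0 in every library. MMP9, a gelatinase, made up 2020 CPM of the C11 control, and CYBB (18.4 CPM), MARCO (22.1 CPM), CSF1R (23.6 CPM) and SPI1 (35.9 CPM) were also highest there. Of the 8 macrophage markers tested, 0 were higher and 1 (MMP9) was lower in all 4 lines (12.5%, against 5.86% of all genes). Smooth and striated muscle markers summed to 1300, 1630, 1120 and 242 CPM in C5, C7, C9 and C11 at 0.5 mM, against 860, 2760, 1080 and 1080 CPM at 0 mM, and their median ratio in C11 was −1.97, that of macrophage markers −1.69. Fibroblast markers were divided in C11, with a median ratio of −0.14. Their sum was 9720 CPM in C11 at 0.5 mM, against 22200 CPM at 0 mM, chiefly through COL1A1 (1870 against 10000 CPM) and COL1A2 (2940 against 7060 CPM). DCN, THY1 and PRRX1 were also lower in C11. PDGFRA (283 against 17.2 CPM), PDGFRB (264 against 79.6 CPM), FAP, LUM and COL3A1 were higher. Fewer cells of a type and less RNA per cell cannot be told apart in these bulk libraries, and the part of these cell types in the values of LYZ, LCP1 and SLA was not tested. SLA had ratios of −1.16, −1.08, −0.94 and −1.37 in C5, C7, C9 and C11, and no marker sum was tested against them.

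Exonic length, the summed length of the exons of a gene, ran with the ratio in some lines and against it in others. The slope of the log2 ratio per doubling of exonic length was 0.304 in C7 and 0.114 in C11, and −0.0256 in C5 and −0.0449 in C9. The mean slope was 0.0869 ± 0.161 (SD, n = 4 lines; exact sign-flip permutation test, two-sided, p = 0.5, where 4 lines cannot reach 0.05, since the smallest p is 2 of 16 sign patterns), and it was 0.0144 without C7. Among genes of 500 to 10000 exonic bases the slopes were steeper, 0.481 in C7, 0.215 in C11, −0.0393 in C5 and −0.0661 in C9. The straight-line adjustment used below took the shallower fit over all genes. Over all genes, length accounted for 5.74% of the variance of the ratio in C7 and for 0.2% to 1.25% in the other lines. Single libraries also had slopes, taken on deviations from the mean of the 8 libraries. The C7 control had the lowest, −0.188, and C7 at 0.5 mM had 0.117, as did C9 at 0.5 mM. For C11 the slopes were −0.065 at 0 mM and 0.0486 at 0.5 mM. In C7 the median ratio was −0.50 in the shortest of 10 equal groups of genes by exonic length (median 621 bases) and 1.05 in the longest (median 5830 bases). In C11 these medians were −0.09 and 0.46. C5 and C9 went the other way, with medians of 0.09 and 0.13 in the shortest group and −0.05 and −0.07 in the longest.

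**Figure D3:**
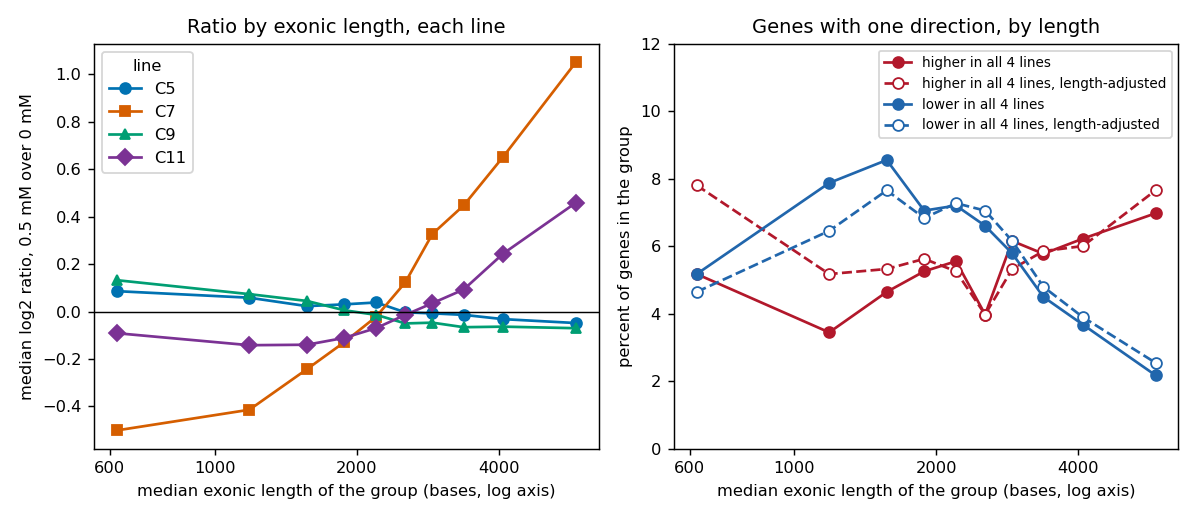
Left, median log2 ratio (0.5 mM over 0 mM) of 10 equal groups of genes by exonic length (bases, log axis), 1 line per cell line. Right, percent of genes in each group that were higher or lower in all 4 lines, before (filled) and after (open, dashed) the length adjustment. C7 climbs from −0.50 to 1.05 and C11 from −0.09 to 0.46. The share of lower genes among the longest genes is 2.18% before and 2.55% after the adjustment.

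Genes higher in all 4 lines were longer than those lower in all 4, with median exonic lengths of 2630 and 2074 bases, against 2372 bases for all genes tested. After the straight-line fit on log2 exonic length was taken out of each line, 773 genes were higher in all 4 lines (5.8%) and 764 lower (5.74%). In the longest of the 10 groups 7.66% were then higher and 2.55% lower, against 6.98% and 2.18% before. In the shortest group 7.81% and 4.65% were, against 5.18% and 5.18% before. The shares thus still differed with length. A lowess curve in place of the straight line gave 828 higher and 693 lower genes, and 20 bins gave 828 and 666. Of the 1490 genes with one direction before, 1239 kept it (598 higher and 641 lower) and 251, or 16.8%, lost it (111 higher and 140 lower). By the rule used here, these 251 genes count as explained by exonic length. The rule asks only that at least 1 line crossed 0, so it does not show that length set their ratios. Nor does a kept direction show that a gene was free of the length trend. The lost higher genes had a median of 3655 bases and the lost lower genes of 1495.5 bases. A further 298 genes had one direction only after the adjustment (175 higher and 123 lower). Of the 194 genes with one direction and an unadjusted p under 0.05, 191 kept the direction and 3 lost it.

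The genes that lost their direction had lain near 0 in at least 1 line. The median ratio in the weakest line was 0.0346 for lost higher genes and 0.126 for kept higher genes, and 0.0257 and 0.0954 in size for lost and kept lower genes. C7 turned in 117 of the 251 genes, C11 in 90, C9 in 57 and C5 in 14. For the kept genes the weakest line was most often C9, the line with the smallest SD of ratios, in 302 of 598 higher and 322 of 641 lower genes.

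Among the long genes that lost their direction was IL1RAP, the coreceptor of interleukin 1. It had 105, 76.5, 79.8 and 83.2 CPM at 0.5 mM, against 89.8, 65, 66.7 and 47.2 CPM at 0 mM, and its ratio in C7 was 0.23 before and −0.04 after the adjustment. SORL1, a sorting receptor with 9758 bases of exons, had ratios of 0.12, 0.16, 0.63 and 0.75 in C5, C7, C9 and C11 before, and the C7 ratio was −0.51 after. CPD, carboxypeptidase D of the secretory pathway, and LMAN1L turned in C7 as well, at 4099 and 4402 bases.

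The short genes that lost their direction were lower before. UCHL3, a deubiquitinase with 693 bases of exons, had 43.8, 46, 38 and 41.7 CPM at 0.5 mM, against 56.5, 50.1, 51.2 and 48.1 CPM at 0 mM, and although the groups did not overlap, its C7 ratio was −0.12 before and 0.38 after. COX4I1, a subunit of respiratory complex IV, had 272, 162, 187 and 213 CPM at 0.5 mM, against 292, 383, 198 and 229 CPM at 0 mM. The C7 libraries gave most of that difference, with a ratio of −1.25 before and −0.80 after the adjustment, and the C11 ratio turned from −0.10 to 0.06. RPL22L1, a paralog of a ribosomal protein, lost its direction in C11 as well. SELENOK, a selenoprotein of the endoplasmic reticulum, turned in C7 and C11, and TRAPPC6A, of a vesicle tethering complex, turned in C7.

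Other genes shared a direction only once length was taken out. HSPB8, a small heat shock protein with 594 bases of exons, had 20.3, 39.6, 55.3 and 58.9 CPM at 0.5 mM, against 10, 49, 37.6 and 40.8 CPM at 0 mM. C7 alone was lower, with a ratio of −0.31 before and 0.26 after the adjustment. HECTD4, a ubiquitin ligase with 13227 bases of exons, had ratios of 0.11, 2.12, −0.01 and 1.25 in C5, C7, C9 and C11 before and 0.18, 1.33, 0.11 and 0.95 after. LSM3, a component of the spliceosome, joined the higher genes. SEMA6A, an axon guidance ligand, CYBC1, a chaperone of the phagocyte oxidase, and GCLM, the modifier subunit of the enzyme that makes the glutathione precursor, joined the lower ones. GCLM had ratios of −0.23, 0.47, −0.32 and 0.08 before and −0.18, −0.16, −0.22 and −0.16 after (8989 bases).

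Genes of cell division were the list with the most higher members. Of 33 mitosis and G2/M genes tested, 9 were higher and 1 lower in all 4 lines, against 5.32% and 5.86% of all genes, and after length adjustment 12 and 1. The median of the mean ratios over lines was 0.71 in the list, against 0.02 over all genes, and 3 members had an unadjusted p under 0.05 in edgeR's test. The line medians were 1.62 in C7, 0.66 in C5, 0.48 in C11 and 0.004 in C9. The count higher was 23 (69.7%) without C9, 13 (39.4%) without C11, 12 (36.4%) without C7 and 9 (27.3%) without C5. Over all genes these shares were 13.7%, 10.2%, 11.3% and 11.5%. BUB1, a kinase of the spindle checkpoint, had 14.5, 10.5, 3.15 and 4.3 CPM at 0.5 mM, against 8.67, 2.7, 3.03 and 1.43 CPM at 0 mM. BUB1B, its partner in the checkpoint, had ratios from 0.22 in C9 to 1.88 in C7. TOP2A, which untangles DNA before division, had 95.4, 62, 17 and 23.7 CPM at 0.5 mM, against 69.3, 23.9, 16.6 and 17.2 CPM at 0 mM. KIF23, a motor of cytokinesis, had a ratio of 2.32 in C7 and of 0.004 in C9. The member lower in all 4 lines was BUB3, a checkpoint protein with ratios from −0.35 to −0.16.

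DNA replication genes were divided. Of 34 tested, 7 (20.6%) were higher and 3 (8.82%) lower in all 4 lines, against 5.32% and 5.86% of all genes. After length adjustment these counts were 7 and 2. TK1, thymidine kinase, had 101, 61.4, 96.6 and 98.8 CPM at 0.5 mM, against 50.6, 57.5, 77.1 and 56.5 CPM at 0 mM, and the groups overlapped only through C7 at 0.5 mM, whose ratio was 0.09, and C9 at 0 mM. CHAF1B, a histone chaperone of replication, had ratios of 0.20, 0.61, 0.24 and 1.48 in C5, C7, C9 and C11. POLE, the catalytic subunit of polymerase epsilon, and CCNE1, cyclin E1, had ratios of 0.24 to 0.68 and of 0.10 to 0.49. CDC45, ORC1 and MCM10, of the replication origin, were higher in all 4 lines at levels under 10 CPM. Lower in all 4 lines were GINS3, of the replicative helicase (ratios −0.34 to −0.15, groups not overlapping), RFC4, of the clamp loader, and PCNA, the clamp itself, which lost its direction with length.

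In the lists of proteasome subunits and mitochondrial ribosomal proteins, the members with a shared direction were lower. Of 30 proteasome subunits tested, 0 were higher and 9 (30%) lower in all 4 lines, against 5.86% of all genes, and 21 had no shared direction. After length adjustment 13 were lower. PSMC1, an ATPase of the regulatory particle, had 206, 156, 156 and 183 CPM at 0.5 mM, against 232, 294, 177 and 233 CPM at 0 mM, and C7 had the largest ratio (−0.92). PSMC5, PSMA6 and PSMD1 had ratios from −1.12 to −0.02. The count lower was 14 (46.7%) with RLE scaling, 17 (56.7%) without C5 and 14 (46.7%) without C9, against 6.61%, 10.9% and 13.4% of all genes under the same settings. It was 11 (36.7%) both without C7 and without C11, against 10.8% and 9.36% of all genes. Of 69 mitochondrial ribosomal proteins, 8 (11.6%) were lower and 0 higher, before and after length adjustment, and 61 had no shared direction, with line medians of 0.05 in C5 and C9. MRPS7 had 33.3, 33.5, 39.6 and 38.2 CPM at 0.5 mM, against 45.4, 66.3, 43 and 44.8 CPM at 0 mM, and its groups did not overlap. MRPL38, MRPL48 and MRPS18A had ratios between −0.89 and −0.14. The count lower was 15 (21.7%) without C5, 13 (18.8%) without C11, 12 (17.4%) without C9 and 9 (13%) without C7. Over all genes these shares were 10.9%, 9.36%, 13.4% and 10.8%, so that the list lay near all genes without C7.

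Genes of the integrated stress response were lower or mixed at this dose. Of 31 tested with the tRNA synthetases, 0 were higher and 8 (25.8%) lower in all 4 lines, against 5.86% lower of all genes. After length adjustment 7 were lower. The median of the mean ratios was −0.38. CHAC1, an enzyme that degrades glutathione and is a target of ATF4, had 31.7, 12.3, 12.1 and 13.8 CPM at 0.5 mM, against 83.1, 498, 14.5 and 39.7 CPM at 0 mM. PSAT1, of serine synthesis, had 17.1, 10, 18.6 and 21.4 CPM at 0.5 mM, against 36.2, 86.4, 23.3 and 26.7 CPM at 0 mM. MTHFD2, of mitochondrial folate metabolism, had 39.7, 38.8, 46.9 and 37.3 CPM at 0.5 mM, against 66.1, 170, 55.7 and 65 CPM at 0 mM. The groups of PSAT1 and MTHFD2 did not overlap, nor did those of CEBPG, a partner of ATF4 (ratios −0.60 to −0.17). The largest ratio in size was that of C11 for CEBPG and that of C7 for the others, and the C7 control was the highest library for each. The count lower was 15 (48.4%) without C11, 12 (38.7%) without C9, 9 (29%) without C7 and 8 (25.8%) without C5. Over all genes these shares were 9.36%, 13.4%, 10.8% and 10.9%. HERPUD1, of degradation at the endoplasmic reticulum, had 68.2, 51.7, 61.8 and 64.1 CPM at 0.5 mM, against 91.4, 135, 68.3 and 97.5 CPM at 0 mM, without overlap, and 80 of its exonic bases are shared with another gene. In the list of endoplasmic reticulum folding, of 20 genes, 2 were higher (ERN1 and PDIA4) and 2 lower (HERPUD1 and HYOU1). These were 10% each, against 5.32% and 5.86% of all genes. HYOU1, a chaperone, has 447 exonic bases shared with another gene.

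**Figure D4:**
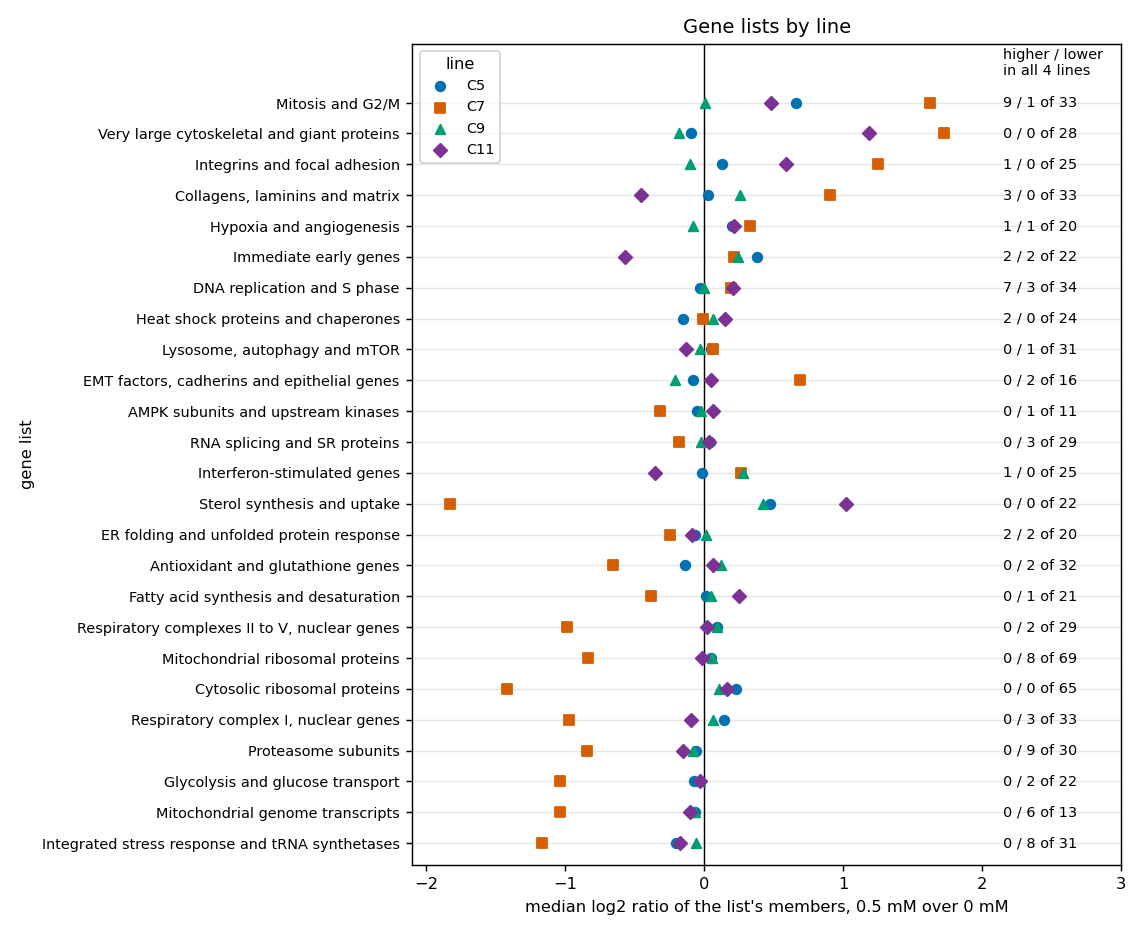
Median log2 ratio (0.5 mM over 0 mM) of the members of 25 gene lists in each line, 1 point per line, ordered by the median over members of the mean ratio of the 4 lines. Numbers at the right give members higher and lower in all 4 lines of those tested. C7 lies apart to the left for cytosolic ribosomal proteins (−1.42), glycolysis (−1.04) and sterol synthesis (−1.83) and is the rightmost point for mitosis (1.62) and the giant proteins (1.72).

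Transcripts of the mitochondrial genome encode subunits of the complex that metformin inhibits and of other complexes. Of 13 protein-coding genes, 6 (46.2%) were lower in all 4 lines, against 5.86% of all genes, and 0 were higher. The 6 were ND1, MT-ND2, ND3, ND4 and ND5 of complex I, and CYTB of complex III, which turned in C11 with length adjustment. ND1 had 1650, 899, 1160 and 1780 CPM in C5, C7, C9 and C11 at 0.5 mM, against 2520, 4220, 1470 and 2820 CPM at 0 mM. MT-ND2 had 872, 576, 498 and 713 CPM at 0.5 mM, against 1340, 1820, 636 and 1260 CPM at 0 mM (edgeR log2 fold change −0.86, SE 0.294, adjusted p = 0.869). ND5 had 2940, 1540, 1620 and 2220 CPM at 0.5 mM, against 3690, 4250, 1930 and 3400 CPM at 0 mM. ND3 had ratios of −0.31, −1.65, −0.36 and −0.53 in C5, C7, C9 and C11. Each of these was lower in its own line throughout, with C7 the farthest from its control, and C9 the nearest for ND1, MT-ND2 and ND5.

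The subunits of complex IV behaved otherwise. MT-CO1 had 22700, 12200, 11100 and 15400 CPM at 0.5 mM, against 18900, 16900, 11000 and 14900 CPM at 0 mM, so that C7 alone was lower. COII and COX3 had ratios of 0.11 to 0.29 in C5, C9 and C11 and of −0.94 and −0.71 in C7. ND6, the one protein gene on the other strand, had 548, 196, 232 and 533 CPM at 0.5 mM, against 326, 308, 167 and 285 CPM at 0 mM, higher in C5, C9 and C11 and lower in C7. ATP8, ATP6 and ND4L were mixed, and ATP8 overlaps ATP6 as ND4L overlaps ND4, so that these pairs can share reads. The share of all counts on the mitochondrial genome was 5.51%, 3.91%, 3.75% and 5.27% at 0.5 mM, against 5.36%, 5.83%, 3.82% and 5.2% at 0 mM. It differed clearly in C7 alone. Of the 35 mitochondrial genes of all kinds tested, 13 were lower in all 4 lines (37.1%, against 5.86% of all genes) and 0 higher. After length adjustment 11 were lower and 2 higher. Many of the 35 have only 65 to 76 bases and some have few counts, 1 to 49 in 1 of the 13. At such lengths the adjustment was large in C7, where the 2 genes had ratios of −0.714 and −0.917 before and 0.805 and 0.602 after.

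**Figure D5:**
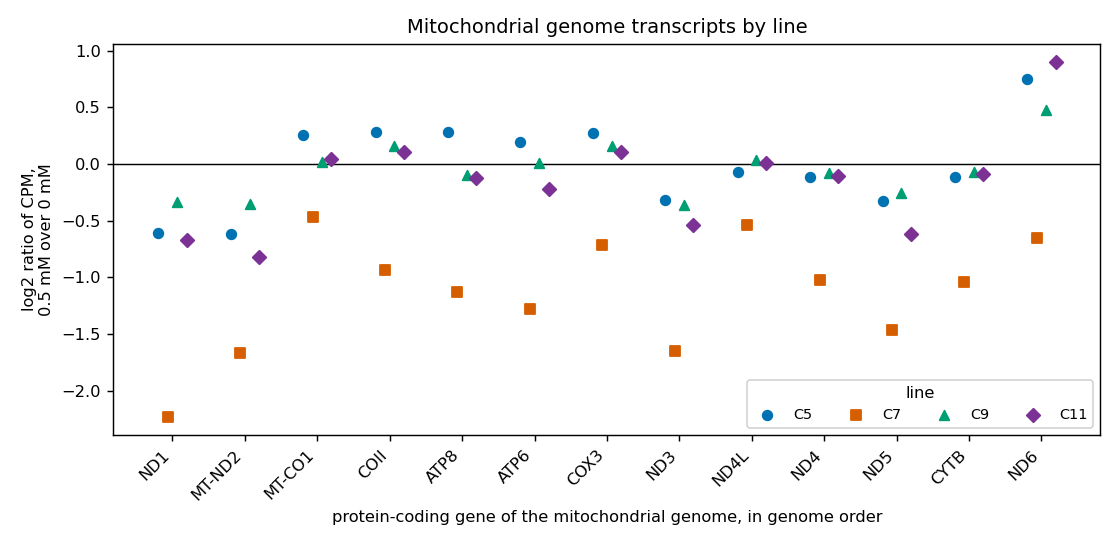
Log2 ratio of CPM (0.5 mM over 0 mM) of the 13 protein-coding genes of the mitochondrial genome, in genome order, 1 point per line. All lines lie below 0 for ND1, MT-ND2, ND3, ND4, ND5 and CYTB, and C5, C9 and C11 lie above 0 for MT-CO1, COII, COX3 and ND6.

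Nuclear respiratory genes, cytosolic ribosomal proteins and lipid genes gave few shared directions. The counts in these lists are read against 5.32% higher and 5.86% lower over all genes. Of 33 nuclear genes of complex I, 3 (9.09%) were lower in all 4 lines, NDUFA12, NDUFS4 and NDUFV2, and NDUFA12 alone remained so after length adjustment. Of 29 nuclear genes of complexes II to V, 2 were lower (UQCRC1 and COX4I1). The 65 cytosolic ribosomal proteins held 0 higher and 0 lower in all 4 lines, since their median ratio was −1.42 in C7 and 0.11 to 0.23 in the other lines. Sterol synthesis, which the factor SREBP2 controls, likewise held 0 and 0 of 22, with medians of −1.83 in C7 and 0.42 to 1.02 in the others. Of 21 genes of fatty acid synthesis 1 was lower, ELOVL5, an elongase, and it lost its direction with length. Of 22 glycolysis genes 2 were lower, SLC2A1, the glucose transporter GLUT1 (ratios −0.65 to −0.09), and GAPDH (−1.89 in C7, −0.12 to −0.04 elsewhere). Of 11 AMPK subunits and upstream kinases, 0 were higher and 1 lower, STRADA, a partner of the kinase LKB1, with ratios of −0.32 to −0.03.

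Very long transcripts showed the length trend most plainly. The 28 genes of very large cytoskeletal and other giant proteins tested, with a median of 13882 exonic bases, had a mean ratio over the 4 lines above 0 in 28 of 28 cases, yet 0 were higher in all 4 lines. Their median ratio was 1.72 in C7, 1.18 in C11, −0.10 in C5 and −0.18 in C9. After length adjustment the medians were 0.79, 0.85, −0.03 and −0.04, and 2 genes were higher in all 4 lines, KMT2C, a histone methyltransferase, and VPS13D, a lipid transfer protein. Matrix genes held 3 higher of 33 (9.09%, against 5.32% of all genes). FBN1, fibrillin 1, had 288, 443, 547 and 367 CPM at 0.5 mM, against 261, 33.9, 544 and 221 CPM at 0 mM, and differed little in C5 and C9.

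The remaining lists held few members with a shared direction. In the heat shock list 2 of 24 were higher, HSPA2 and HSPD1, a mitochondrial chaperonin, and 0 lower, and after length adjustment 4 were higher and 1 lower. Higher and lower members numbered 1 and 0 of 25 integrin and focal adhesion genes, 1 and 0 of 25 interferon-stimulated genes, 0 and 2 of 32 antioxidant genes, 0 and 1 of 31 lysosome, autophagy and mTOR genes and 0 and 2 of 16 genes of epithelial to mesenchymal transition. Each of these counts is read against 5.32% higher and 5.86% lower over all genes.

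Some members of the hypoxia, immediate early and RNA splicing lists had shared directions as well. Higher and lower members numbered 1 and 1 of 20 (5% and 5%), 2 and 2 of 22 (9.09% and 9.09%) and 0 and 3 of 29 (0% and 10.3%). Over all genes the shares were 5.32% and 5.86%. HIF1A, the oxygen-regulated subunit of hypoxia-inducible factor, had 514, 361, 461 and 562 CPM at 0.5 mM, against 297, 157, 386 and 322 CPM at 0 mM (edgeR log2 fold change 0.76, SE 0.233, adjusted p = 0.869). The groups overlapped only through C7 at 0.5 mM and C9 at 0 mM. P4HA2, a collagen hydroxylase in the hypoxia list, was lower, with ratios from −1.22 to −0.13. RBM3, an RNA-binding protein induced by cold, had 230, 222, 249 and 249 CPM at 0.5 mM, against 369, 296, 319 and 288 CPM at 0 mM, and every treated library lay below every control. SRSF5, HNRNPU and U2AF1, of RNA splicing, were lower in all 4 lines, with ratios from −0.54 to −0.02. JUN had 547, 578, 401 and 481 CPM at 0.5 mM, against 462, 491, 292 and 395 CPM at 0 mM, higher in every line, whereas FOS, its partner in AP-1, was higher in C5, C7 and C9 (ratios 1.31, 0.82 and 1.47) and lower in C11 (−1.07). NR4A3 was higher in all 4 lines, with ratios of 2.75, 3.87, 0.06 and 0.21 in C5, C7, C9 and C11 and a lowest count of 15. MYC and KLF2 were lower in all 4 lines. SNAI1, a repressor of epithelial genes, had 5.79, 7.69, 34.6 and 10.4 CPM at 0.5 mM, against 6.91, 38.1, 44.8 and 29.4 CPM at 0 mM, lower in every line and most so in C7 and C11.

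The libraries at 1 and 2 mM, which share no library with this comparison, gave the same measure in other libraries. Between 2 mM and 1 mM, 5.63% of 12993 genes were higher and 6.89% lower in all 4 lines after length adjustment. Of 755 genes higher in all 4 lines at 0.5 mM, 86 (11.4%) were higher again at 2 mM over 1 mM and 44 (5.83%) were lower. Of 741 genes lower at 0.5 mM, 85 (11.5%) were lower again and 44 (5.94%) were higher. Genes are not independent of each other and the lines are the same, and no test was made. The 10 higher and 10 lower genes with the largest ratio in their weakest line held 2 with the same direction, RBM15 and FOXK1, and 4 with the opposite one, SPATS2L, SLC25A29, EMP1 and MT-ND2. EMP1 had ratios of 1.16, 0.13, 0.71 and 0.13 in C5, C7, C9 and C11 for 2 mM over 1 mM. RBM3 was lower again in all 4 lines (−0.68, −0.46, −0.75 and −0.34), as were HERPUD1, KLF2, SRSF5 and HNRNPU, while TK1, CHAF1B and KIF23 were higher again. ND3, MTHFD2, PSMD1 and BUB3, lower at 0.5 mM, were higher in all 4 lines at 2 mM over 1 mM. Of the 78 named genes with one direction after length adjustment, 14 had the same direction in all 4 lines and 8 the opposite.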

How the data were processed

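Primary COVCAR cells were sequenced as stranded, single-end mRNA libraries. Per the labels and methods, the authors aligned reads with HISAT2 2.1.0 to the chicken build GRCg6a and counted them on exons with featureCounts, by strand and with reads over overlapping genes given to each gene. The deposited values are counts per gene, without normalization. Exonic length, the other column used, is the authors' featureCounts length of the union of exons. The authors' tables of DESeq2 fold changes, p-values and scaled counts were not used.

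Totals were 34724071 to 42531887 counts per library. Intervals were not drawn, and counting error was not set against the spread between lines. The sign of a ratio near 0, such as KIF23 in C9 (9.41 against 9.39 CPM), may lie within counting error. Genes were filtered with filterByExpr, scaled by TMM and tested in R 4.3.3 with edgeR 4.0.16 (quasi-likelihood, two-sided, line as a term, Benjamini-Hochberg over 13318 genes). Genes were called at p under 0.01 and adjusted p under 0.05. The adjustment for length was an offset per library. Log2 CPM had a prior count of 1, and ratios were adjusted by the straight-line fit on log2 exonic length in each line. The p-values measure the spread between 4 lines. Libraries were paired because each line comes from 1 hen. Same-line libraries correlated, in deviations from the dose means, at 0.692 for C9, 0.608 for C5, 0.0782 for C11 and 0.0364 for C7 (libraries of other lines, median −0.105, highest 0.251, which is above C11 and C7).

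Named genes had a symbol and a mean of at least 5 CPM: the 10 higher and 10 lower kept genes with the largest adjusted ratio in their weakest line, 5 and 5 that lost and 3 and 3 that gained a shared direction, the 3 smallest p-values per direction and fit, up to 4 kept members per list, and FOS and RBM3. Some genes that this rule names are not reported here. Other list members with one direction, CD48 and the genes of the line check were named after their values were seen. Of the marker lists not in the report, erythroid sums were at most 1.37 CPM, B cell sums were 13.9 to 37.9 CPM and endothelial sums 12.9 to 78.4 CPM. T cell sums were 113 to 222 CPM with CD4 and CTLA4 at 0. LCK alone made up 108 to 219 CPM of them, and CD3E and CD3D were at most 15.3 and 3.81 CPM. The comparison, members and lists were chosen with earlier results of these data known. Of 23910 genes, 10393 have no symbol.

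Alternatives were RLE, DESeq2 1.42.0, no filter or at least 1 CPM, no line term, all 16 libraries, a prior count of 5, a least ratio of 0.25, lowess or 20 bins for length, and each line left out. On simulated data with 200 genes changed by 2 log2 units in this comparison, edgeR with the line term called 56.4% of the 195 tested and 7 unchanged genes, and with the length offset 59.5% and 6. DESeq2 with the line term called 84.5% of 200 and 71 unchanged genes. The simulation gave a gene the same scatter in every line, whereas the SD of the real ratios ran from 0.431 in C9 to 1.36 in C7. These rates therefore need not hold for the real libraries.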

Additional observations from a re-analysis of the deposited data

Results flagged for a closer look

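In 67 groups of 4 values, 1 per line, the highest or lowest value was set against the other 3 by Dixon's ratio, and 13 stood apart. Chance flags about 1 in 20 such groups where all 4 values come from 1 normal distribution. That does not hold here, since the SD of the ratios ran from 0.431 in C9 to 1.36 in C7 and the genes were chosen by their values. The groups are also not independent, since the same libraries enter each, so the 13 cannot be set against that rate.

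C11 stood apart for 3 genes. The log2 ratio of LYZ was −7.27 in C11 and −1.55 to −0.63 in the other lines, that of RELT was −2.07 in C11 and −0.63 to −0.40 elsewhere, and that of IL1RAP was 0.82 in C11 and 0.22 to 0.26 elsewhere. Macrophage markers summed to 297 CPM in C11 at 0.5 mM, against 2260 CPM at 0 mM, of which MMP9 made up 180 and 2020 CPM. Muscle markers summed to 242 CPM, against 1080 CPM. The part of these cell types in the values of the 3 genes was not tested. CPD was apart in C5 (0.77, against 0.20 to 0.27 in the other lines).

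C7 stood apart for 2 genes and 7 lists, and was the lowest in each. RPL22L1 had −2.08 and COX4I1 −1.25. The list medians in C7 were −0.99 for complexes II to V, −1.04 for mitochondrial genome transcripts, −1.42 for cytosolic ribosomal proteins, −0.84 for mitochondrial ribosomal proteins, −0.84 for proteasome subunits, −1.17 for the integrated stress response and −1.04 for glycolysis. The other lines lay between −0.21 and 0.23 in these lists. C7 also had the steepest slope on exonic length (0.304), and the median exonic length of the lists ran from 784 bases (mitochondrial genome) to 2780 bases (integrated stress response). After length adjustment the C7 medians were still −0.69, −0.76, −1.04, −0.55, −0.65, −1.13 and −1.21 in the same order. That adjustment used the C7 slope over all genes (0.304), and the slope was 0.481 among genes of 500 to 10000 bases.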

How the results depend on the processing

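edgeR called 0 genes in every alternative of the paired test run with and without length adjustment, and DESeq2 with the replicate block called 1. Genes at an unadjusted p under 0.05 numbered 225 with the line as a replicate block and 146 with no replicate block (0 called), 338 with no count filter, 366 by DESeq2 with no block, 685 by DESeq2 with the block, and 835 over all 16 libraries. A least ratio of 0.25 in each line left 140 higher and 102 lower genes, and 148 and 98 after length adjustment. With 1 line left out, 1359 to 1824 genes were higher and 1247 to 1778 lower in the other 3, and after length adjustment 1431 to 1863 and 1269 to 1716, as 3 lines share a direction more easily than 4. The mean length slope ran from 0.0144 to 0.131 with 1 line left out. With no count filter 866 genes were higher and 924 lower, and with RLE 691 and 891 after length adjustment. Among alternatives chosen after seeing the data, leaving out 1 line gave 9 to 23 higher mitosis genes (27.3% to 69.7%) and 8 higher S phase genes (23.5%). The higher share of all genes was then 10.2% to 13.7%. Lower members numbered 11 to 17 for the proteasome (36.7% to 56.7%) and 8 to 15 for the stress response (25.8% to 48.4%). They numbered 9 to 15 for mitochondrial ribosomal proteins (13% to 21.7%) and 6 to 7 for the mitochondrial genome (46.2% to 53.8%). The lower share of all genes was then 9.36% to 13.4%. RLE gave 14 lower proteasome members (46.7%), against 6.61% of all genes. Of 1066 log2 fold changes of the 89 named genes under alternatives, 1061 kept their sign. The other 5 were of GCLM, −0.00 in the paired test (adjusted p = 1), which was 0.003 with no count filter, 0.002 at 1 CPM or more, 0.021 over all 16 libraries, 0.096 without C5 and 0.109 without C9. With 1 line left out it ran from −0.158 (without C7) to 0.109. The causes were not tested. In simulated data edgeR with the line term called 56.4% of genes changed by 2 log2 units, and smaller changes were not simulated. Those data gave a gene the same scatter in every line, which the real lines did not have, so the rate need not hold for them.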
